A study of Mus musculus with 8 samples.

Results

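The nuclear genes for subunits of the mitochondrial respiratory chain were compared between 4 Exp and 4 Ctrl arrays of mouse tissue. Members were all probe sets named for 1 gene only whose symbol begins with Ndufa, Ndufb, Ndufc, Ndufs, Ndufv, Uqcr, Cox4, Cox5, Cox6, Cox7 or Cox8, or is Sdha, Sdhb, Sdhc or Sdhd, with Ndufaf symbols left out. The rule found 65 of the 18193 genes named in this way, read by 138 of 45037 probe sets, and used no measured value. Of these, 120 probe sets of 59 genes were bright enough to be tested. Cox7b was not analysed here.

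Total RNA was hybridised to Affymetrix mouse expression arrays, on which each probe set is a group of short oligonucleotides for 1 transcript. The labels name the groups Exp and Ctrl, number the arrays of each group 1 to 4, and state no genotype, strain, treatment, time or age for either group, nor whether animals were pooled. The titles put the letters Pt or pt before the number and do not explain them. One label field names the trigeminal ganglion, which holds the sensory neurons of the face, and another names brain and adrenal medulla. No label says that arrays came from separate animals, so the spread behind every p-value is that of these arrays and may be technical.

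Markers of sensory neurons were bright on every array: all 12 on the array were tested, with summed signals of 492745 to 504399 in Exp and 494175 to 518687 in Ctrl. Of 7 markers of brain neurons and glia on the array, 2 were tested, with summed signals of 9082 to 11088 in Exp and 9765 to 11043 in Ctrl. Of 7 chromaffin cell markers 5 were tested, with summed signals of 32784 to 34361 in Exp and 33317 to 36838 in Ctrl. Summed signals here and below cover all markers of a list on the array, tested or not. Median signals of the arrays lay between 478 and 553, and the log2 ratio of the 3′ to the 5′ actin control probe set, a measure of RNA integrity, was 4.54 ± 0.12 in Exp and 4.36 ± 0.07 in Ctrl (SD, n = 4 each). That difference of 0.19 had p = 0.0571 in an exact two-sided permutation test, whose smallest possible p is 0.0286, and without Exp 1 it was 0.24 with p = 0.0286. On every array the 3′ probe set was far brighter than the 5′ probe set, with log2 ratios of 4.38 to 4.66 in Exp and 4.30 to 4.45 in Ctrl. The part of this ratio, and of its difference, in the results below was not tested.

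The respiratory chain lies in the inner mitochondrial membrane and passes electrons from NADH and succinate to oxygen. Complex I, NADH dehydrogenase, takes electrons from NADH, and complex II, succinate dehydrogenase, takes them from succinate in the citric acid cycle. Both hand them to ubiquinone, from which complex III, cytochrome bc1, passes them to cytochrome c, and complex IV, cytochrome c oxidase, passes them on to oxygen. Complexes I, III and IV pump protons, and the gradient drives ATP synthase. Neurons depend on this supply for ion pumping and axonal transport. A few subunits of complexes I, III and IV are encoded by mitochondrial DNA. They have other symbols and are not among the members. Ndufa4 and Ndufa4l2 are given with complex IV, because the Ndufa4 protein is purified with that complex.

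Promoters of the nuclear genes are known as targets of NRF1, of ETS factors such as GABP and of YY1. RefSeq promoter sequences (GRCm38.p6, 250 bases before to 50 after the start) were found for 52 of the 65 genes, 54 promoters in all. The array files name no build, and these coordinates are those of the RefSeq table. The NRF1 core GCGCATGC, searched on both strands, was in 6 of the 54 (11.1%), against 2.71% of all 32851 promoters and 4.93% of the 13206 promoters of tested genes. The 6 genes were Cox6a1, Ndufa6, Ndufa8, Sdhb, Uqcr11 and Uqcrc1. The 250 bases upstream of the start are shown for the 4 of them that hold the core there and whose values are described below, 5′ to 3′ on the gene's strand, with the NRF1 core and, in Cox6a1, the ETS core in capitals on whichever strand it was read.
Ndufa6 (chr15:82354292-82354541, minus strand): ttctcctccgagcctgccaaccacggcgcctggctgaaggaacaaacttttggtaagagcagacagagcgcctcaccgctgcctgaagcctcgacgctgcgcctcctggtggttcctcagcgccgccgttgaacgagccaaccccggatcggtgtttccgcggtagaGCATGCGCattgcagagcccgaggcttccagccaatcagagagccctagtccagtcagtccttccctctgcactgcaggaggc
Ndufa8 (chr2:36049339-36049588, minus strand): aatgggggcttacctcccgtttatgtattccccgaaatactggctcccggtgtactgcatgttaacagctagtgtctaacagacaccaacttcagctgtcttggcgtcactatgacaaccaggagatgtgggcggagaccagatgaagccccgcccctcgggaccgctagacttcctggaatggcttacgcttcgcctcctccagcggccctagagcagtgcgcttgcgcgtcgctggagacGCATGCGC
Sdhb (chr4:140961021-140961270, plus strand): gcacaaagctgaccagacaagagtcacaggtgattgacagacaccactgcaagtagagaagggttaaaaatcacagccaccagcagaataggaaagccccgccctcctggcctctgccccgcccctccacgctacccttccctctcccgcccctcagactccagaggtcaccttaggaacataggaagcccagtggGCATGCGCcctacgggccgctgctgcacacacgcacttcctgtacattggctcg
Cox6a1 (chr5:115348959-115349208, minus strand): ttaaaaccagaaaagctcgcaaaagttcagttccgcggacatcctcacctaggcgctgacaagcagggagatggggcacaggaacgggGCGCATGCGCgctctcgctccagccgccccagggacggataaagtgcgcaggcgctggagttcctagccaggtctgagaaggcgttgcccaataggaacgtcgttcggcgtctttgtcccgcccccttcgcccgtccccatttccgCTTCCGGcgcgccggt

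Positions are those of a match's leftmost printed base, with -1 for the base next to the start. In Cox6a1 the NRF1 core was read on both strands, at -162 and -160 with an overlap, and the ETS core stood at -16. In the others the NRF1 core was read on the strand opposite the gene, at -83 in Ndufa6, -8 in Ndufa8 and -54 in Sdhb. The ETS core CCGGAAG was in 11 of 54 member promoters (20.4%), against 8.86% of all promoters and 15.98% of those of tested genes. The Sp1 motif GGGGCGGGG was in 7 promoters (13.0%), against 11.4% of all and 20.8% of those of tested genes, and the TATA box TATAAA in 7 (13.0%), against 13.6% and 7.69%. Such a match is a description of the letters and not a measured binding site.

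The YY1 motif AAGATGGC, also searched on both strands, was in 6 of 54 member promoters (11.1%), against 2.75% of all promoters and 4.10% of those of tested genes. All 6 belonged to complex I, which held 33 of the 54 member promoters, against 3, 5 and 13 in complexes II, III and IV. They were read on the gene's own strand, 23 to 39 bases after the start. A match on the gene's strand after the start was held by 0.865% of all promoters and 1.85% of those of tested genes. The letters hold ATG, which can also be a start codon. Whether it is one was not looked up. Windows of 24 bases, cut at the same offset around each match, are shown with the motif in capitals.
Ndufa3 (chr7:3617383-3617406, plus strand): gccgccaagaacAAGATGGCcggg
Ndufa9 (chr6:126849104-126849127, minus strand): gcattgtgggagAAGATGGCggcc
Ndufb8 (chr19:44555393-44555416, minus strand): gcggagaaggtgAAGATGGCtgcc
Ndufc1 (chr3:51408922-51408945, minus strand): agcctgcggaacAAGATGGCgccg
Ndufs4 (chr13:114388048-114388071, minus strand): tttgcctacaggAAGATGGCggcg
Ndufs7 (chr10:80249461-80249484, plus strand): aaggccgaggccAAGATGGCggcg

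**Figure D1:**
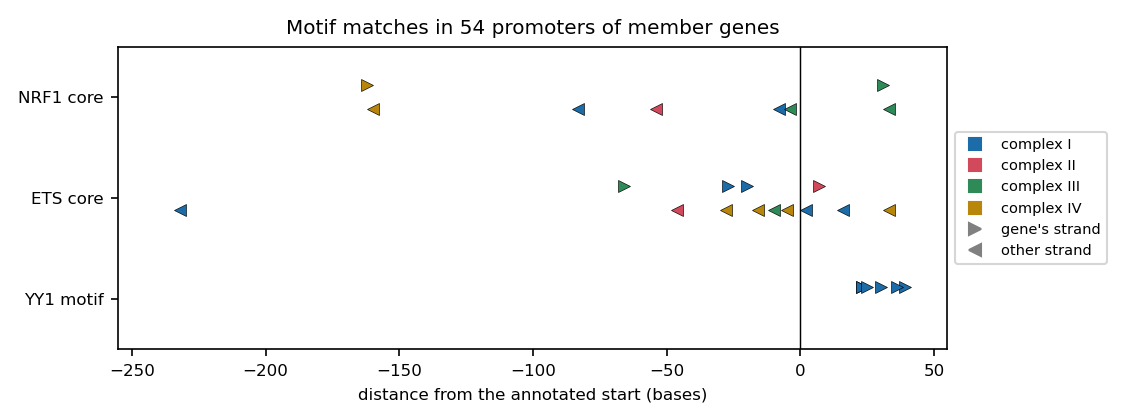
Position of each motif match (horizontal axis, bases from the RefSeq start of transcription) in the promoters of member genes with 1 row per motif, colours for the complex and triangles that point right for the gene's strand and left for the other. The 6 YY1 matches sit after the start in genes of complex I, which holds 33 of the 54 promoters. NRF1 and ETS matches are spread over all 4 complexes.

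No member passed the test between Exp and Ctrl. Values are log2(signal + 16) after quantile normalization, differences are Exp minus Ctrl on that scale, and the test was limma's moderated test with p-values adjusted by Benjamini-Hochberg for the 27022 probe sets tested. At an adjusted p of 0.05, 0 of 120 member probe sets were called, against 1 of 27022 in all (0.0037%, that 1 higher in Exp and no member, and 0.0% lower in Exp). The smallest adjusted p of a member was 0.999. At an unadjusted p under 0.05 there were 2 member probe sets, both lower in Exp (1.67%), against 4.69% of all tested probe sets, 2.18% higher and 2.5% lower. That number was 7 without Ctrl 1, 5 without Exp 4 and 4 without Ctrl 2 or Exp 3. It was 3 without Ctrl 3 or Exp 1 and 1 without Exp 2. With array weights, with the trend and robust options or with the Eif2s3y signal as a covariate it was 5. The share of all tested probe sets was not counted in these alternatives, so nothing particular to the members is read from them.

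The data bounded the difference of most subunit genes within 1.5-fold. Each gene was described by its brightest tested probe set. The 95% confidence interval of the difference lay within 1.5-fold either way for 50 of 59 member genes (84.7%), against 74.5% of all 12763 tested genes and 2798 of the 2924 genes at least as bright as the members' lower quartile. It lay within 2-fold for 58 of 59, with Cox6a2 as the exception. Over probe sets, 95 of 120 members (79.2%) lay within 1.5-fold, against 66.0% of all, and 118 of 120 within 2-fold, against 93.5% of all. The subunit genes were among the brighter on the array, with a median log2 signal of 14.68 over the 59 genes.

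Small differences leaned to the lower side in Exp. Of the 59 genes 41 were lower in Exp by any amount (69.5%), against 54.8% of all tested genes and 51.6% of the 2924 bright genes. Without quantile normalization 33 of 59 were lower, and with centring on medians 45. The share of all tested genes was not counted in these settings. The median difference over all tested genes moved as well, between -0.057 and -0.0075 over the alternatives. Over probe sets, 88 of 120 members were lower in Exp (73.3%), against 51.6% of all. The median difference was -0.028 over the 59 genes, -0.015 over all tested genes and -0.0030 over the bright genes. By array, the median deviation over all members was -0.033 to -0.0061 in Exp and -0.042 to 0.075 in Ctrl, so the groups overlapped. The members share arrays and are not replicates, and no test was made of the lean. Beside it, 6 of 7 markers of Schwann and satellite glia were lower in Exp, with summed signals of 152257 to 169241 in Exp and 160351 to 174204 in Ctrl. Of 6 fat cell markers on the array 3 were tested, and 2 of these were higher in Exp. Summed signals of all 6 were 1871 to 2121 in Exp and 1387 to 1842 in Ctrl. The part of glia and of fat cells in the lean was not tested.

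**Figure D2:**
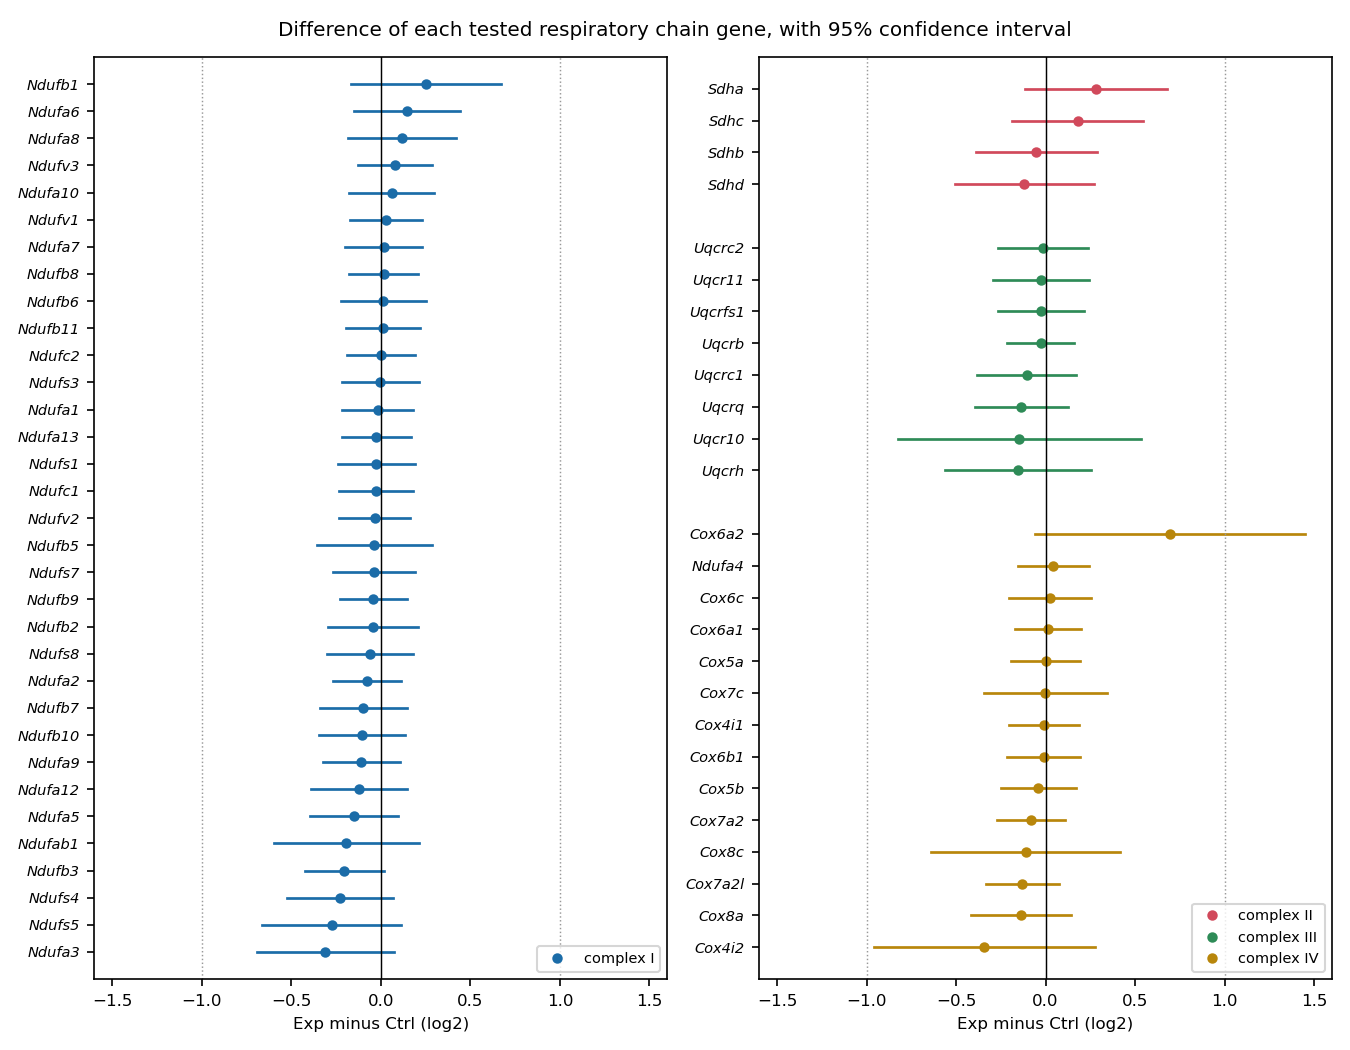
Log2 difference, Exp minus Ctrl, of each of the 59 tested subunit genes by its brightest probe set (points), with the 95% confidence interval (lines), grouped by complex, and dotted lines at a 2-fold change. All 59 intervals include 0, and Cox6a2 has the widest interval, -0.058 to 1.45.

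Complex I contributed 34 genes, of which 33 were tested, 11 higher and 22 lower in Exp, with none called and a median difference of -0.035. The median was -0.014 without quantile normalization, -0.063 with centring on medians, -0.012 without Ctrl 4 and -0.016 without Exp 1. Over the alternatives the median of all tested genes also moved, between -0.057 and -0.0075. Differences ran from -0.31 for Ndufa3 to 0.25 for Ndufb1. Array by array, the median deviation of these genes from their own means was -0.028, -0.0074, -0.043 and 0.015 in Exp 1 to 4, against -0.018, 0.021, 0.0087 and 0.075 in Ctrl 1 to 4. The arrays of the groups overlapped. Among the gene families, by brightest probe sets, Ndufs genes were lower in 6 of 6 cases (median -0.048) and Ndufa in 8 of 12 (median -0.051). Of the 6 tested probe sets of Ndufs8, 4 were higher in Exp and 2 lower, the brightest among the lower. Ndufb genes were lower in 6 of 10 (median -0.039), Ndufc in 1 of 2 and Ndufv in 1 of 3. Of all tested genes 54.8% were lower in Exp.

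Core subunits of complex I carry the flavin and the iron-sulfur clusters along which electrons run, and the 6 core genes analysed here differed by no more than 0.059 in size. Ndufv1, which binds NADH and flavin mononucleotide, had log2 signals of 14.57, 14.73, 14.71 and 14.76 in Exp 1 to 4, against 14.65, 14.72, 14.66 and 14.64 in Ctrl 1 to 4. Its difference was 0.028 (SE 0.089), with a 95% confidence interval of -0.17 to 0.23, and the groups overlapped. The difference turned to -0.0097 with centring on medians and to -0.017 as the mean of its probe sets. Ndufs1, the largest iron-sulfur subunit, had 14.12, 14.11, 14.29 and 14.09 in Exp 1 to 4, against 14.07, 14.19, 14.28 and 14.17 in Ctrl 1 to 4, a difference of -0.027 (SE 0.095), with Exp 3 the highest of all 8 arrays. Without Ctrl 3 the difference of Ndufs1 was 0.0078. The remaining core genes stood close to 0 as well: Ndufv2 at -0.035 (SE 0.088), Ndufs3 at -0.0029 (SE 0.095), Ndufs7, which carries the last cluster before ubiquinone, at -0.037 (SE 0.10) and Ndufs8 at -0.059 (SE 0.11). Of these, Ndufv2 and Ndufs8 each changed sign in 1 alternative, Ndufs7 in 1 and Ndufs3 in 4.

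Among accessory subunits, which surround the core and serve in assembly and stability, the 3 smallest p-values on the lower side were those of Ndufb3, Ndufa3 and Ndufs4. Ndufb3, a subunit of the membrane arm, had log2 signals of 15.01, 15.09, 15.26 and 14.97 in Exp 1 to 4, against 15.23, 15.34, 15.25 and 15.33 in Ctrl 1 to 4. Its difference was -0.20 (SE 0.10), the smallest p of complex I by brightest probe sets (unadjusted p = 0.0664, adjusted p = 0.999 by limma), and Exp 3 lay within the Ctrl values. Ndufa3, an accessory subunit, had 12.83, 12.83, 13.14 and 12.88 in Exp 1 to 4, against 12.78, 13.21, 13.47 and 13.48 in Ctrl 1 to 4, a difference of -0.31 (SE 0.17) in which Ctrl 1 was the lowest array of all. Without Ctrl 1 this difference was -0.47. Its other tested probe set gave -0.40 (SE 0.14), with an unadjusted p of 0.0211. Ndufs5, another accessory subunit, stood at -0.28 (SE 0.17) with a larger p.

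Ndufs4, a subunit beside the NADH-oxidising module whose loss in mice gives a fatal brain disease, had log2 signals of 13.32, 13.24, 13.19 and 13.66 in Exp 1 to 4, against 13.40, 13.56, 13.70 and 13.66 in Ctrl 1 to 4. Its difference was -0.23 (SE 0.13), with Exp 4 inside the Ctrl range. All 4 tested probe sets of Ndufs4 were lower in Exp, from -0.40 to -0.13. A dimmer probe set of Ndufs4 had the smallest p of any member, with log2 signals of 9.37, 9.39, 9.20 and 9.64 in Exp 1 to 4, against 9.78, 10.05, 9.72 and 9.67 in Ctrl 1 to 4. Its groups did not overlap, and its difference was -0.40 (SE 0.13), with an unadjusted p of 0.0123 and an adjusted p of 0.999 by limma.

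On the higher side, Ndufb1, a small membrane-arm subunit, had log2 signals of 9.65, 9.61, 9.31 and 9.31 in Exp 1 to 4, against 9.08, 9.44, 8.78 and 9.57 in Ctrl 1 to 4, a difference of 0.25 (SE 0.18). Ctrl 2 and Ctrl 4 lay among the Exp values, and without Ctrl 3 the difference was 0.10. Ndufa6, which holds the acyl carrier protein Ndufab1 in the complex, had 12.80, 13.21, 12.65 and 12.91 in Exp 1 to 4, against 12.83, 12.63, 12.76 and 12.76 in Ctrl 1 to 4. Its difference of 0.15 (SE 0.13) was 0.042 without Exp 2, the highest array. Ndufa8, on the outer face of the membrane arm, had 14.90, 14.89, 14.78 and 14.84 in Exp 1 to 4, against 14.85, 14.37, 14.77 and 14.95 in Ctrl 1 to 4, a difference of 0.12 (SE 0.13) that became -0.0015 without Ctrl 2, its lowest array. Ndufb4 was too dim to be tested, with log2 signals of 7.89 to 8.25 in Exp and 5.41 to 8.65 in Ctrl.

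**Figure D3:**
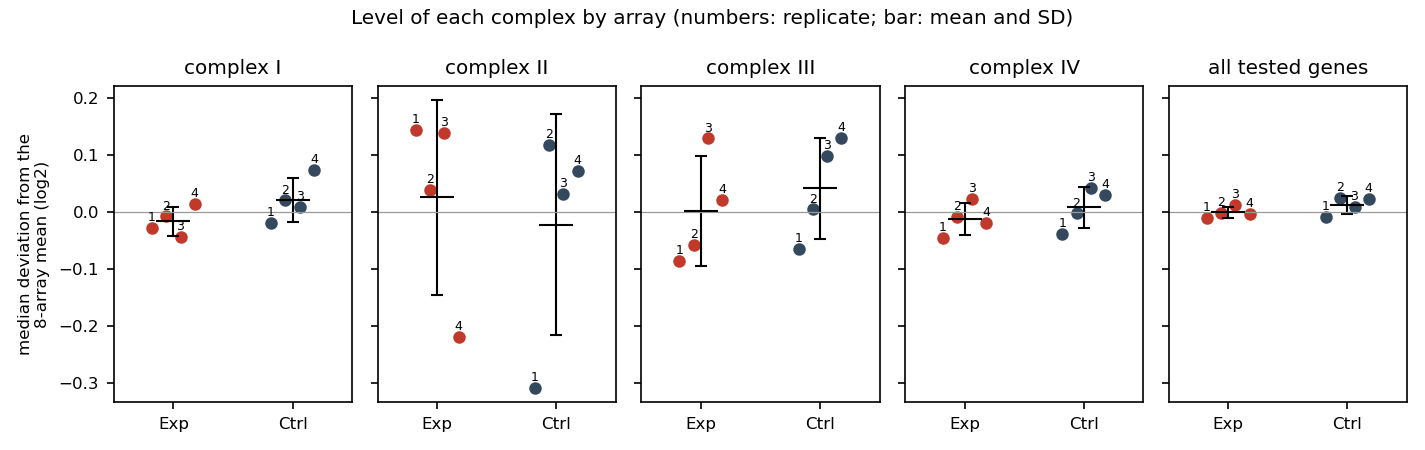
Median log2 deviation from the gene mean over the tested genes of each complex, for each array (numbered points, Exp left of Ctrl), with the mean and SD of each group as bars and the same for all tested genes. Exp and Ctrl arrays overlap in all 4 complexes, and complex II, with 4 genes, spreads most, from -0.22 to 0.14 in Exp and from -0.31 to 0.12 in Ctrl.

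All 4 subunits of complex II were tested, 2 higher and 2 lower in Exp, none called, with a median of 0.063 that was -0.031 over the mean of each gene's probe sets and -0.029 without Ctrl 1. Sdha, the flavoprotein that oxidises succinate, had log2 signals of 14.78, 14.78, 14.90 and 14.93 in Exp 1 to 4, against 14.26, 14.25, 14.97 and 14.78 in Ctrl 1 to 4. Its difference was 0.28 (SE 0.17) and all 3 tested probe sets were higher in Exp, from 0.12 to 0.28. Ctrl 1 and Ctrl 2 were low, Ctrl 4 lay at the low end of the Exp values and Ctrl 3 above them, so the groups overlapped. Without Ctrl 2 the difference of Sdha was 0.18. Sdhc, a membrane anchor, had 12.00, 12.12, 11.87 and 11.49 in Exp 1 to 4, against 11.40, 11.81, 11.70 and 11.85 in Ctrl 1 to 4, a difference of 0.18 (SE 0.16), and its probe sets disagreed, at -0.20 and 0.18.

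Sdhb, the iron-sulfur subunit whose promoter is printed above, had log2 signals of 16.05, 15.84, 15.66 and 15.68 in Exp 1 to 4, against 15.60, 16.19, 15.78 and 15.88 in Ctrl 1 to 4. Its difference was -0.052 (SE 0.15), and it was 0.0072 without quantile normalization and 0.058 without Ctrl 2, the highest array. Sdhd, the other anchor, had 13.32, 13.31, 13.90 and 13.21 in Exp 1 to 4, against 13.26, 13.70, 13.61 and 13.64 in Ctrl 1 to 4, a difference of -0.12 (SE 0.17). Exp 3 was the highest of all arrays for Sdhd and Ctrl 1 lay among the other Exp values. Without Exp 3 the difference was -0.27. Neither anchor passed the test.

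In complex III all 8 genes were tested, and by brightest probe sets all 8 were lower in Exp (by 0.014 to 0.15), against 54.8% of all tested genes. Second tested probe sets were higher in Exp for Uqcrb at 0.041 (SE 0.22) and Uqcrc2 at 0.0071 (SE 0.10). Those of Uqcr10, Uqcrh and Uqcrq were lower. None of the 8 was called, and their median of -0.067 ranged from -0.12 to -0.028 over the alternatives. Their medians by array were -0.085, -0.057, 0.13 and 0.021 in Exp 1 to 4, against -0.064, 0.0048, 0.10 and 0.13 in Ctrl 1 to 4, so the arrays of the groups overlapped. Uqcrc1, 1 of the core proteins on the matrix side, had log2 signals of 12.87, 12.88, 12.99 and 12.58 in Exp 1 to 4, against 12.77, 12.90, 12.99 and 13.08 in Ctrl 1 to 4, a difference of -0.11 (SE 0.12). Exp 4 was its lowest array, and without Exp 4 the difference was -0.022. Uqcrc2, the other core protein, had 15.22, 15.41, 15.01 and 15.15 in Exp 1 to 4, against 15.19, 15.15, 15.17 and 15.34 in Ctrl 1 to 4, a difference of -0.014 (SE 0.11), which was 0.022 with array weights and 0.051 without Exp 3. Uqcrfs1, the Rieske iron-sulfur protein that takes electrons from ubiquinol, had 14.41, 14.28, 14.49 and 14.14 in Exp 1 to 4, against 14.27, 14.31, 14.41 and 14.42 in Ctrl 1 to 4, a difference of -0.027 (SE 0.11) that was 0.036 without Exp 4.

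The 3 smallest p-values of complex III, unadjusted at 0.270 to 0.412, belonged to Uqcrq, Uqcrc1 and Uqcrh. Uqcrq, a small subunit that lies by cytochrome b, had log2 signals of 13.11, 12.94, 13.31 and 13.32 in Exp 1 to 4, against 13.18, 13.35, 13.33 and 13.37 in Ctrl 1 to 4, a difference of -0.13 (SE 0.11). Uqcrh, the hinge protein that docks with cytochrome c1, had 11.45, 11.51, 11.97 and 11.91 in Exp 1 to 4, against 11.47, 11.83, 12.08 and 12.07 in Ctrl 1 to 4, a difference of -0.15 (SE 0.18). Without single arrays the difference ranged from -0.18 to -0.057 for Uqcrq, the smallest in size without Exp 2, and from -0.29 without Ctrl 1 to -0.070 without Exp 1 for Uqcrh. Both genes were lower in Exp in every tested probe set, and their groups overlapped. In Uqcrh the arrays split within groups, with Exp 1, Exp 2 and Ctrl 1 low and the rest high. Uqcr10, with a difference of -0.15 (SE 0.30), was lowest in the same pair of arrays, Exp 1 and Ctrl 1. Uqcrb and Uqcr11 stood at -0.028 (SE 0.082) and -0.024 (SE 0.12).

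Complex IV had 19 genes, of which 14 were tested, 5 higher and 9 lower in Exp, none called, with a median of -0.010 and a range of -0.34 to 0.70. Its median was 0.025 without quantile normalization, -0.085 when the probe sets of a gene were averaged, -0.049 without Exp 4 and 0.011 without Ctrl 3. Core electron carriers of this complex are encoded by mitochondrial DNA, and the nuclear subunits regulate and stabilise it, several as tissue isoforms. Of the ubiquitous genes, Cox4i1, the main form of the regulatory subunit that binds ATP, had log2 signals of 16.01, 15.99, 15.99 and 16.04 in Exp 1 to 4, against 15.93, 16.01, 16.10 and 16.04 in Ctrl 1 to 4, a difference of -0.0089 (SE 0.085) with a 95% confidence interval of -0.20 to 0.18. The sign for Cox4i1 turned without quantile normalization (0.042). Cox6a1 stood at 0.011 (SE 0.081), Cox6b1 at -0.011 (SE 0.091), Cox6c at 0.025 (SE 0.10), Cox5a at 0.00089 (SE 0.085) and Ndufa4 at 0.042 (SE 0.087), each smaller than its error. Cox6a1, Cox6b1, Cox6c and Ndufa4 changed sign in at least 1 alternative.

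Groups did not overlap for 4 member probe sets, all lower in Exp (3.33%), against 2.34% of all tested probe sets, 1.06% higher and 1.28% lower. Besides the dimmer Ndufs4 probe set, they read Cox7a2l, Cox7a2 and Cox5b. Cox7a2l, which joins complexes III and IV into supercomplexes, had log2 signals of 16.07, 15.98, 16.11 and 16.04 in Exp 1 to 4, against 16.11, 16.30, 16.17 and 16.14 in Ctrl 1 to 4. Every Exp array was below every Ctrl array by this brightest probe set, and the difference was -0.13 (SE 0.089) with an unadjusted p of 0.18 and an adjusted p of 0.999 by limma. All 3 of its tested probe sets were lower in Exp, from -0.13 to -0.058. Cox7a2, the form of subunit VIIa found in most tissues, had 14.28, 14.37, 14.27 and 14.37 in Exp 1 to 4, against 14.37, 14.41, 14.45 and 14.45 in Ctrl 1 to 4 by its second probe set, a difference of -0.10 (SE 0.084). Its brightest probe set gave -0.081 (SE 0.083) with groups that overlapped. Cox5b, a zinc-binding subunit on the matrix side, had 12.95, 12.91, 12.90 and 12.87 in Exp 1 to 4, against 12.99, 13.17, 13.03 and 13.22 in Ctrl 1 to 4 by the probe set in question, a difference of -0.19 (SE 0.093). The brightest Cox5b probe set overlapped at -0.040 (SE 0.093) and was 0.019 without quantile normalization, and all 5 tested Cox5b probe sets were below Ctrl with it.

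Cox8a, the ubiquitous form of the smallest subunit, had log2 signals of 13.19, 13.17, 13.31 and 13.17 in Exp 1 to 4, against 13.05, 13.37, 13.40 and 13.58 in Ctrl 1 to 4, a difference of -0.14 (SE 0.12). Ctrl 1 was the lowest of all 8 arrays, and without it the difference was -0.24. Cox8c, a form described mainly from testis, had 9.81, 10.29, 10.18 and 9.96 in Exp 1 to 4, against 10.47, 9.44, 10.39 and 10.37 in Ctrl 1 to 4, a difference of -0.11 (SE 0.23), with Ctrl 2 below all other arrays. Without Ctrl 2 the difference of Cox8c was -0.35.

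By its only tested probe set, the heart and skeletal muscle isoform Cox6a2 had the largest difference of any tested member. It rested largely on 1 array. Its log2 signals were 8.80, 8.95, 10.30 and 9.03 in Exp 1 to 4, against 9.06, 8.43, 8.61 and 8.20 in Ctrl 1 to 4. The difference was 0.70 (SE 0.33), a 1.62-fold ratio with a 95% confidence interval of -0.058 to 1.45 on the log2 scale (unadjusted p = 0.0663, adjusted p = 0.999 by limma). Without Exp 3 it was 0.35. The other Cox6a2 probe set was too dim to be tested, and its mean was lower in Exp, at 7.39 against 7.76 in Ctrl. There Exp 3 read 7.75, the highest of Exp, against 7.27 to 8.18 in Ctrl. Of 22 skeletal muscle markers on the array 17 were tested, 16 higher and 1 lower in Exp, with summed signals of 17312, 29112, 83635 and 10389 in Exp 1 to 4, against 13550, 13862, 12170 and 17002 in Ctrl 1 to 4. No signal was at 0. Muscle markers and the tested Cox6a2 probe set were thus both highest in Exp 3, and the part of muscle RNA in the Cox6a2 value was not tested. In tissue samples of this kind, fewer cells of a type and less RNA per cell cannot be told apart.

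The other muscle isoforms were too dim to be tested. Cox7a1 had log2 signals of 8.51, 8.66, 8.36 and 8.50 in Exp 1 to 4, against 8.12, 7.74, 8.03 and 8.50 in Ctrl 1 to 4, around the limit of 8.45 set for the mean, and it was not highest in Exp 3. Cox8b lay at 5.57 to 6.87 in Exp and 5.57 to 6.92 in Ctrl. The hypoxia-related and vascular forms were dim as well. Cox4i2, which replaces Cox4i1 in lung and in perivascular cells, had 8.18, 8.08, 9.08 and 8.16 in Exp 1 to 4, against 8.73, 8.68, 9.24 and 8.20 in Ctrl 1 to 4, a difference of -0.34 (SE 0.27). Exp 3 and Ctrl 3 were the high arrays within their groups, and without Exp 3 the difference was -0.58. Of 7 pericyte markers on the array 6 were tested, and 0 of these were higher in Exp. Summed signals of all 7 were 7719 to 13984 in Exp and 10961 to 14406 in Ctrl, the lowest in Exp 3. The part of pericytes in the Cox4i2 value was not tested. Ndufa4l2, a form induced by hypoxia, had a mean below the limit, with 5.97 to 8.73 in Exp and 6.90 to 9.11 in Ctrl. The forms known mainly from testis, Cox6b2 and Cox7b2, were not bright enough to be tested either.

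**Figure D4:**
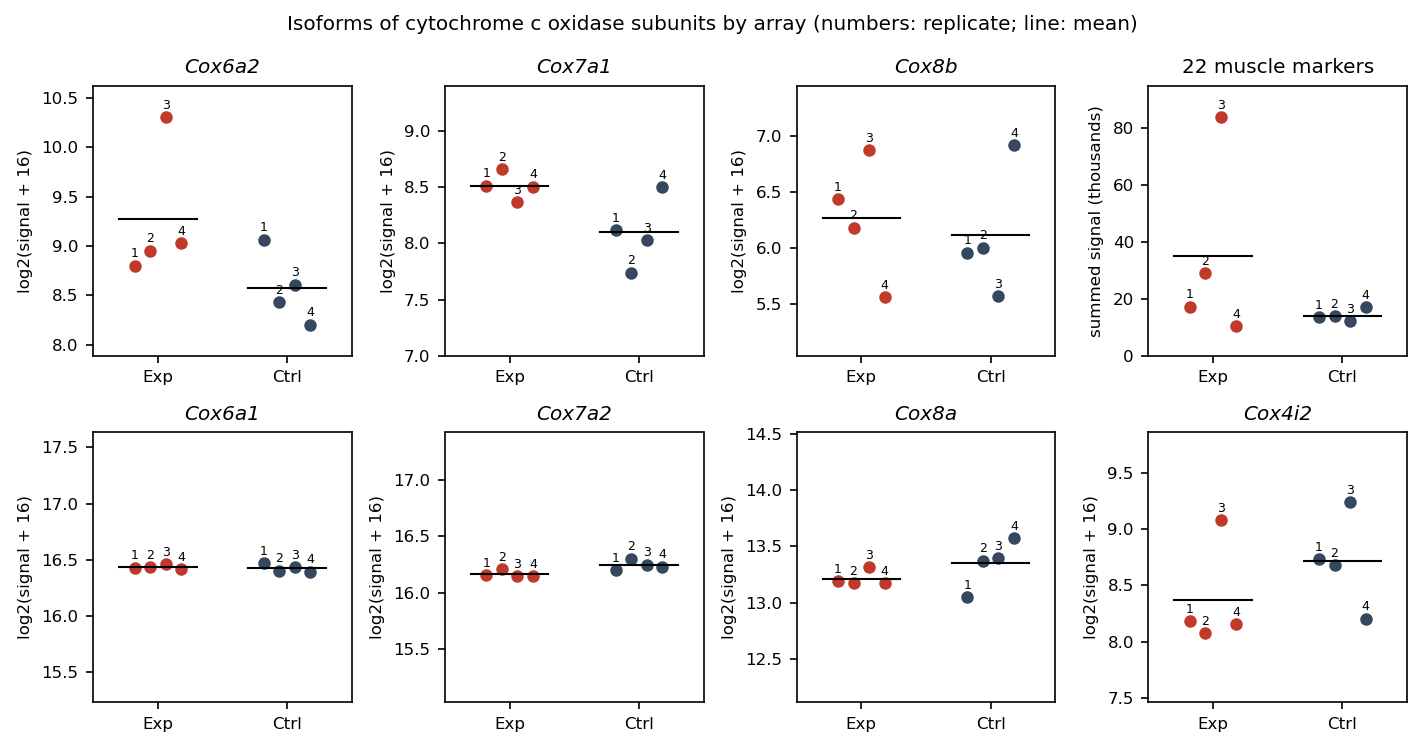
Log2 signal of complex IV isoform genes in each array (points, Exp left of Ctrl, with the group means as lines), beside the summed linear signal of the 22 skeletal muscle markers. Cox6a2, shown by its tested probe set, and the muscle markers share their highest array, Exp 3, while Cox7a1 does not.

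Different probe sets of a gene often differed in sign. Of 37 genes with at least 2 tested probe sets, 20 had all of them lower in Exp, 2 had all of them higher (Sdha and Ndufb11) and 15 were mixed. The differences of 1 gene's probe sets lay 0.12 apart in the median and 0.41 at most, in Ndufa7, and no gene exceeded 0.5. The 61 probe sets other than the brightest were lower in Exp in 47 cases and higher in 14, with a median of -0.078, and they were dimmer, with a median log2 signal of 12.57.

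**Figure D5:**
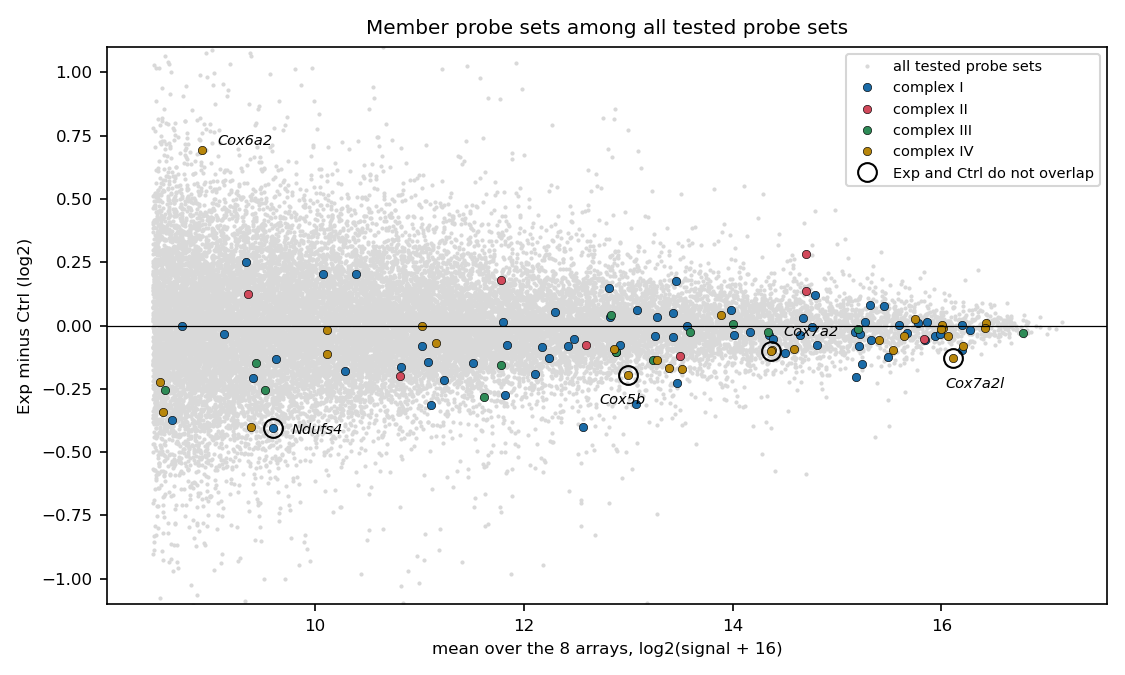
Log2 difference, Exp minus Ctrl, against mean log2 signal for all tested probe sets (grey) and the 120 member probe sets (coloured by complex), with the 4 members whose groups did not overlap ringed and named, and Cox6a2 named. Members sit to the bright side and near 0, and 71 probe sets lie outside the plotted range of 1.1 either way.

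Mean correlations between subunits over arrays of the same group were above that of all tested genes in complexes I, II and III. The mean pairwise correlation of residuals over the 8 arrays was 0.058 for complex I, 0.22 for complex II, 0.20 for complex III and -0.0080 for complex IV, against 0.0041 over all tested genes. Over all members it was 0.060, against 0.0017 over the 2924 genes at least as bright as the members' lower quartile. These are descriptions over arrays that share hybridisation and scaling, and complexes II and III hold 4 and 8 genes.

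The other genes of mitochondrial energy supply were counted by lists of the pathway, and no gene of these lists was called. Beside the counts of each list, 54.8% of all tested genes were lower in Exp. The ATP synthase list held 16 tested genes, among them Atpif1, an inhibitor of the enzyme and no subunit, which stood at -0.068 (SE 0.087). Of the 16, 15 were lower and 1 higher in Exp, with a median of -0.054, and the smallest p were those of Atp5l at -0.62 (SE 0.36) and Atp5o at -0.13 (SE 0.10). Of 40 assembly factors, 30 were lower and 10 higher, with a median of -0.064. Sco2, a copper chaperone of complex IV, stood at 0.38 (SE 0.17) with an unadjusted p of 0.0481, and Ndufaf2, an assembly factor of complex I, at -0.22 (SE 0.10). Among 10 genes of the list of mobile carriers, which holds cytochrome c, enzymes of ubiquinone synthesis and Cyc1, the cytochrome c1 of complex III, 6 were lower and 4 higher, and the ubiquinone enzymes Coq2 and Coq7 stood at -0.32 (SE 0.19) and -0.10 (SE 0.10).

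In the citric acid cycle 8 of 12 genes were lower and 4 higher, with Ogdh at -0.21 (SE 0.19) and Dld, which serves the same enzyme complex, at -0.11 (SE 0.11). Among 12 regulators of mitochondrial biogenesis 6 were higher and 6 lower. Nrf1, whose core motif is printed above, stood at 0.33 (SE 0.16), and Tfam, which packages mitochondrial DNA, at -0.18 (SE 0.10). Of 19 genes of mitochondrial membranes and import 13 were lower and 6 higher, with Hspe1, a mitochondrial chaperonin, at 0.15 (SE 0.14). Tomm22, an import receptor, stood at -0.13 (SE 0.085), and its groups did not overlap, as for 2.25% of all tested genes. Of 76 mitochondrial ribosomal proteins 57 were lower and 19 higher, with a median of -0.053, and the smallest p were those of Mrps18c at -0.20 (SE 0.10) and Mrps18a at -0.23 (SE 0.12). Medians of all 7 lists lay between -0.064 and 0.012, against -0.015 over all tested genes.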

How the data were processed

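RNA of 4 Exp and 4 Ctrl arrays was measured, and groups and numbers came from the sample titles. The deposited table holds a linear intensity for each probe set on each array. The authors' computation of these intensities is not stated in the sources used here. Trimmed by 2% at either end, the mean of each array was 2500, so values are relative to the bulk of signal. No detection call or background came with the values.

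After leaving out 64 control probe sets, log2(signal + 16) was quantile-normalised, since array medians differed by 0.203. Probe sets with a mean under the 40th percentile (a signal of 333) were left out. Exp was compared with Ctrl on the remaining 27022 by limma 3.58.1 (R 4.3.3), two-sided, with Benjamini-Hochberg adjustment at a 5% false discovery rate. The fit was tested on simulated data. The number of arrays limits the precision.

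Symbols came from the platform annotation and equalled those of RefSeq. Of the probe sets, 34945 carried 1 gene name and 932 several, and no gene was given a value from a probe set with several names.

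Members and lists were chosen with earlier results of these data known. The genes named by rule were the 3 smallest p per direction in complexes I, III and IV, all of complex II, core subunits, tissue isoforms, genes with probe sets over 0.5 apart, genes with groups that did not overlap, and up to 2 per list. Ndufb4, Ndufb11, Ndufa7, Ndufs5, Cox5a, Uqcr10, Uqcrb, Uqcr11, Atpif1 and Cyc1 were named after their values were seen.

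Alternatives were other pseudocounts, filters, no quantile normalization, centring on medians, a replicate block, the Eif2s3y signal as a covariate, trend and robust options, array weights, averaging the probe sets of a gene, the complex IV median without muscle isoforms, and leaving out each array. Figures were drawn with matplotlib 3.10.9.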

Additional observations from a re-analysis of the deposited data

Results flagged for a closer look

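In 8 of 100 groups of 4 arrays, 1 array stood apart from the other 3 by more of the group's range than Dixon's limit allows, where chance gives about 5. Exp 3 was the array in 5 of them, each time above the other Exp arrays. Cox6a2 had a log2 signal of 10.3 in Exp 3 and 8.80 to 9.03 in the others, Sdhd 13.9 and 13.2 to 13.3, Cox4i2 9.08 and 8.08 to 8.18, Cox8a 13.3 and 13.17 to 13.19, and Ndufs1 14.3 and 14.09 to 14.12. Cox8c was low in Ctrl 2, at 9.44 against 10.37 to 10.47 in the other Ctrl arrays. The median deviation over all members was -0.033 in Exp 1, against -0.0074 to -0.0061 in the other Exp arrays. The sensory neuron markers summed to a signal of 518687 in Ctrl 2, against 494175 to 496502 in the other Ctrl arrays.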

How the results depend on the processing

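No member was called in any of 19 alternatives. The single call over all probe sets was lost, giving 0, without the filter, with the filter at the 60th percentile, with the replicate block and with the Eif2s3y covariate, and leaving out single arrays gave 0 to 1. No label says whether shared replicate numbers mark pairs. Same-numbered arrays correlated at 0.016, 0.050, -0.074 and -0.12 in their deviations from group means, and differently numbered arrays at -0.17 to 0.20. With so few arrays per group these values cannot decide whether arrays were paired. With the replicate block 0 members were called, as without it. Member probe sets with an unadjusted p under 0.05 numbered 5 with the covariate, with trend and robust options or with array weights, and 1 to 7 without single arrays. The share of all tested probe sets was not counted beside these numbers. The complex IV median was 0.025 without quantile normalization, -0.085 when probe sets of a gene were averaged, and -0.049 to 0.011 without single arrays. Complex I and III medians stayed below 0 in all 20 alternatives. So did the median over all tested genes, at -0.057 to -0.0075. The actin ratio difference was 0.15 to 0.24 without single arrays. Of 33 tested named genes 16 kept their sign throughout and 17 did not, in 31 of 656 values, the largest difference among the 17 being 0.18. Signs turned without quantile normalization for Cox4i1 (0.042), Cox5b (0.019), Cox6b1 (0.063), Ndufv2 (0.011) and Sdhb (0.0072), with centring for Cox6b1 (0.014), Ndufa4 (-0.018) and Ndufv1 (-0.0097), with the covariate for Ndufs3 (0.0057), with array weights for Uqcrc2 (0.022), and with the mean of probe sets for Cox6a1 (-0.081), Cox6c (-0.037), Ndufs8 (0.039), Ndufv1 (-0.017) and Sdhc (-0.011). Without single arrays they turned for Ndufa8 (-0.0015 to 0.19), Ndufs1 (-0.071 to 0.0078), Ndufs3 (-0.043 to 0.042), Ndufs7 (-0.077 to 0.013), Sdhb (-0.14 to 0.058), Uqcrc2 (-0.085 to 0.051), Uqcrfs1 (-0.080 to 0.036), Cox4i1 (-0.037 to 0.018), Cox6b1 (-0.039 to 0.019) and Cox6c (-0.028 to 0.068). The cause was not tested. Dim isoforms near the filter limit bear only wide intervals.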

Other observations

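A further 10 probe sets name a subunit gene together with other genes and were no members. Of these 9 were tested and 0 called by limma at an adjusted p of 0.05, with differences of -0.39 to 0.48, a smallest unadjusted p of 0.0258 and 0 with groups that did not overlap.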
